A study of Mus musculus with 6 samples.

Results

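The Eph receptors, ephrins, Slits, Robos, srGAPs, netrin receptors, netrins, Flrts and draxin form the main contact-mediated and secreted guidance systems of growing axons apart from the semaphorins. They were followed here as 42 genes, picked by gene symbol among the 24411 genes in the deposited tables, and all 42 symbols were found. By role they are 9 EphA and 5 EphB receptors, 5 ephrin-A and 3 ephrin-B ligands, 3 Robo receptors, 3 Slit ligands, 3 srGAPs, 6 netrin receptors, and a last class of 5 with netrins, Flrts and draxin. The RNA came from the corpus callosum of B6 mice on postnatal day 4, microdissected by hand from frozen sections 60 µm thick. One group of 3 libraries is labelled WT and the other group of 3 is labelled Mettl14 cKO, a conditional deletion of a subunit of the enzyme that writes N6-methyladenosine (m6A) on mRNA. The labels name neither the Cre driver nor the animals behind each library, so that every p-value measures the spread between libraries, which may be technical. The question of the series is how m6A bears on the mRNA found in callosal axons.

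Eph receptors are tyrosine kinases that bind ephrins on a neighbouring cell, and both sides can signal: the receptor forward into its own cell and the ephrin in reverse into the ligand-bearing cell. Slits are secreted repellents read by Robo receptors, whose inner tail recruits srGAP proteins. Netrin-1 attracts axons through Dcc and repels them through Unc5 receptors, while draxin binds Dcc and netrin and Flrts bind Unc5 and Robo1. In the corpus callosum these systems are known for steering axons to and across the midline.

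The libraries were shallow and held between 670462 and 1268430 expected counts. Both replicate 2 libraries were the deepest and had mean fragments of 304.3 (WT) and 292.7 bases (cKO), against 332.4 to 350.5 in the other libraries. Mettl14 had 11, 8 and 5 counts in WT against 2, 7 and 2 in cKO, too few to show a loss, and reads outside a deleted part would be counted too. The source is labelled as callosal axon, yet markers of glia were present in WT. Summed TPM (the share of transcripts after scaling to transcript length) of 12 astrocyte markers was 2540 to 3120 in WT and 691 to 1310 in cKO. For 10 markers of myelinating oligodendrocytes it was 1590 to 2480 and 1.06 to 5.85, with 6 of them at 0 counts in cKO. For 14 excitatory neuron markers it was 206 to 860 in WT and 2680 to 3630 in cKO, with Neurod2 at 0 counts in each WT library, and for 10 pan-neuronal markers 5420 to 6190 and 6730 to 8900. The members of both of these lists were mixed. Log2 fold changes were positive for 6 and negative for 4 of the 10 excitatory markers tested. They were positive for 6 and negative for 2 of the 8 pan-neuronal ones. Summed TPM of 9 interneuron markers went the other way, with 416 to 519 in WT and 10.9 to 283 in cKO. All 4 tested interneuron markers had negative values. For 10 markers of radial glia or progenitors the sum was 11400 to 16300 in WT and 4230 to 5010 in cKO. Genes with few exons were often at 0 or 1 count in a library, as given below, and their part in these sums was not tested. Xist had 0 counts in WT and 2323 to 4618 in cKO, so that genotype and sex cannot be told apart in any result below.

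Of the 42 genes, 15 passed the filter on low counts and entered the test over 5918 genes, and 0 were called higher or lower in cKO at an adjusted p below 0.05 with edgeR. Over all genes tested, 0.49% were called higher and 0.422% lower. At an unadjusted p below 0.05, Efnb1, Ephb2, Robo1 and Ephb6 stood higher and Draxin lower, which is 4 and 1 of 15, against 7.16% higher and 5.41% lower over all genes tested. DESeq2 called Efnb1 and Ephb2 higher and none of the 42 lower, and limma-voom called none. The libraries of the genotypes did not overlap for Efnb1, Ephb2, Robo1, Robo2 and Slit1, each higher in cKO, and for no tested gene of the set in the other direction. Over all genes tested, 10.4% stood higher and 9.45% lower without overlap, or 19.8% in either direction. Fold changes were positive for 13 of the 15 and for 53.9% of all genes tested. These 15 are no neutral sample of the 42. The filter asks for about 11.7 CPM (counts scaled to the library size) in 3 libraries. Efnb1, Ephb2, Ephb6 and Robo1 met it in all cKO but not all WT libraries and thus entered through the group in which they were high, as Draxin did through WT. The median log2 fold change was 0.98 over the 15 and 0.07 over all genes tested, and it is given only as a description.

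**Figure D1:**
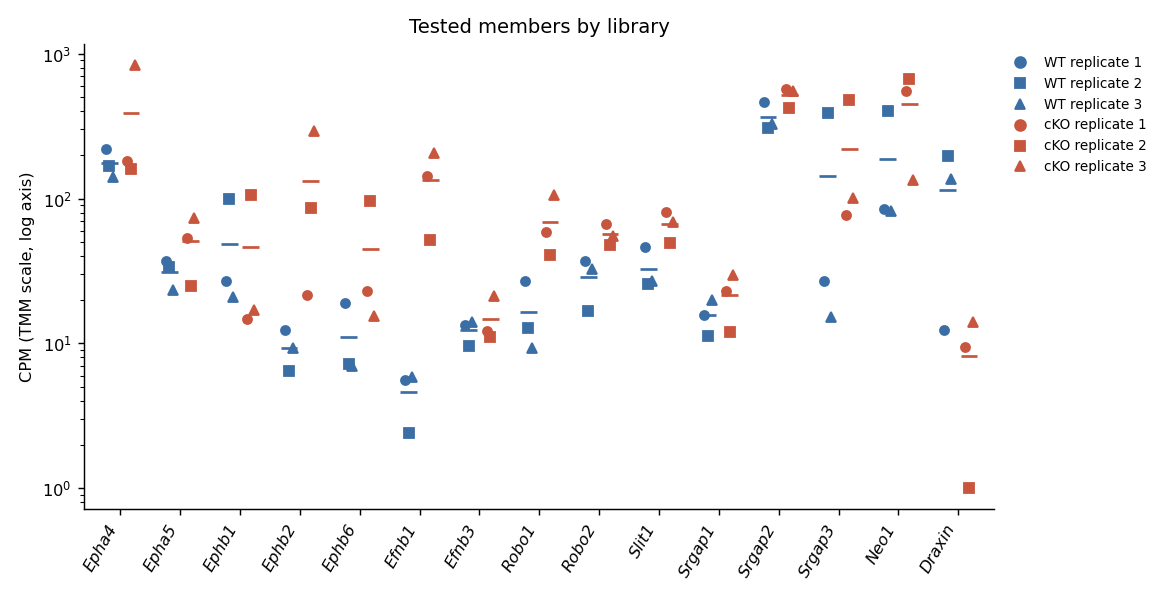
CPM on the TMM scale (log axis) of the 15 tested genes, 1 point per library with blue for WT and red for cKO, the marker shape giving the replicate number and short lines the group means (n = 3). The cKO points of Efnb1, Ephb2, Robo1, Robo2 and Slit1 lie above all their WT points, whereas Srgap3, Ephb1 and Neo1 are highest in the replicate 2 library of each genotype.

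**Figure D2:**
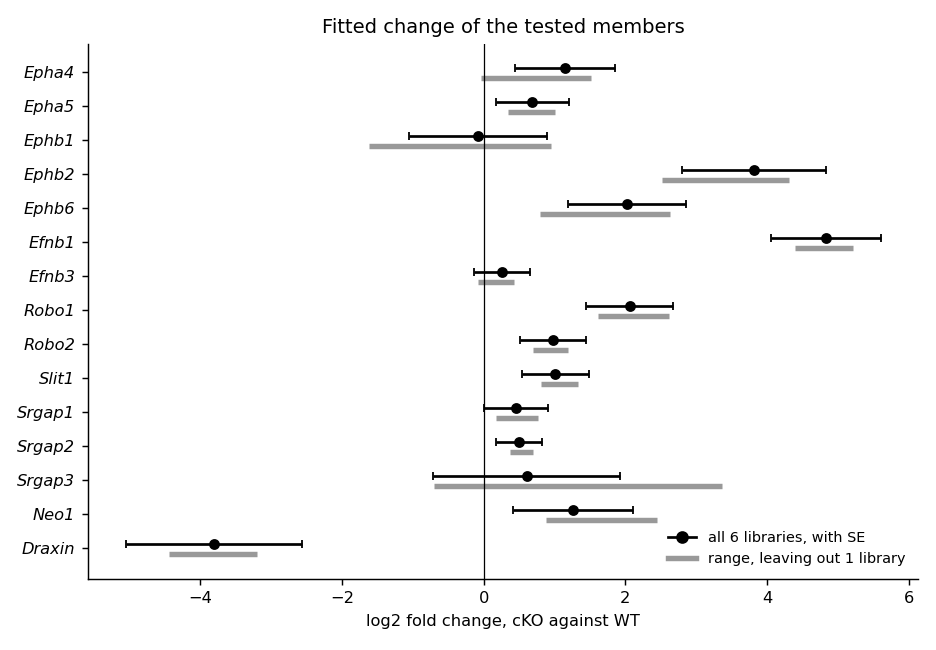
Fitted log2 fold change of the 15 tested genes, cKO against WT, with the approximate SE (black) and the range of values when each library is left out in turn (grey). Efnb1 stays between 4.39 and 5.21, while the range of Srgap3 runs from −0.7 to 3.37.

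Levels between genes were compared as TPM. By group mean in WT, the srGAP Srgap2 was the highest of the 42, with 83.1, 57.6 and 53.5 TPM in replicates 1 to 3. The receptor Epha4 had 50.8, 41.0 and 29.7, and the WT libraries of this pair did not overlap. In WT replicate 2 Neo1 (83.0), Srgap3 (66.1) and Draxin (58.3) were above both. The means were 40.5 ± 10.6 TPM for Epha4, 38.1 ± 38.9 for Neo1, 32.4 ± 27.5 for Draxin and 24.2 ± 36.3 for Srgap3 (SD, n = 3), and these neighbours did not differ beyond their spread. Slit1 at 9.15 ± 3.29 TPM was the highest Slit, and no ephrin passed 6 TPM on average in WT, Efnb3 at 5.80 ± 0.849 being the highest. Epha1 had 0 counts in all 6 libraries.

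By class, the summed TPM of the ephrin-B ligands was 10.6, 21.2 and 8.93 in WT and 176.5, 28.5 and 121.6 in cKO. Robo receptors summed to 6.05 to 12.1 TPM in WT and 14.4 to 34.2 in cKO. The class of netrins, Flrts and draxin stood at 7.85, 63.8 and 41.0 TPM in WT and 5.33, 1.04 and 8.60 in cKO. The first 2 of these classes had no overlap between genotypes and the last overlapped through WT replicate 1. The ephrin-B sum was no shift of the whole class. In cKO it was mostly Efnb2 in replicate 1 (115.61 TPM) and Efnb1 in replicates 2 and 3 (20.61 and 106.65 TPM). EphA receptors (37.4 to 66.9 TPM in WT, 44.9 to 245 in cKO), EphB receptors (15.2 to 42.5 and 19.3 to 120), ephrin-A ligands, Slits, srGAPs and netrin receptors overlapped.

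**Figure D3:**
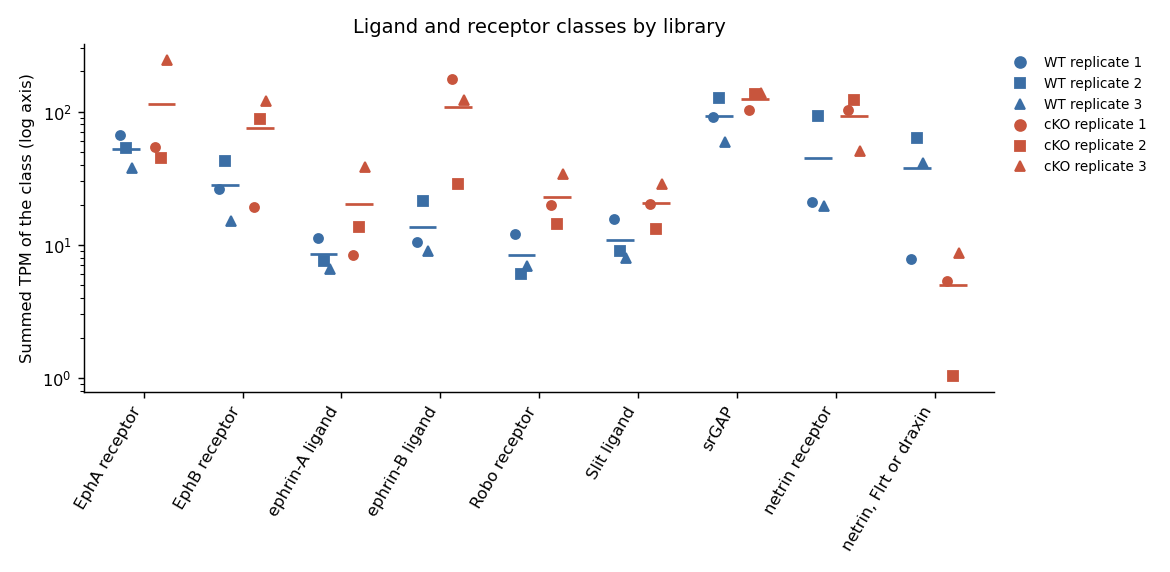
Summed TPM (log axis) of the 9 ligand and receptor classes by library, with blue for WT, red for cKO and short lines for group means (n = 3). The cKO points of the ephrin-B and Robo classes lie above all WT points, and EphA receptors are far higher in cKO replicate 3 than elsewhere.

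Ephrin-B ligands are transmembrane proteins with a short inner tail that carries the reverse signal. Efnb1 had 5, 3 and 5 counts in WT replicates 1 to 3 and 106, 52 and 145 in cKO replicates 1 to 3. Every cKO library thus had over 10 times the counts of any WT library. On the CPM scale it stood at 4.62 ± 1.91 in WT and 133 ± 77.0 in cKO (SD, n = 3). The fitted difference was 4.83 on the log2 scale (SE 0.78, edgeR adjusted p = 0.0518). It passed with edgeR under upper-quartile scaling (4.66, adjusted p = 0.0451) and with a term for being replicate 2 or not (4.73, adjusted p = 0.0325). It also passed with DESeq2 (4.89, adjusted p = 6.35e-07) and with limma on log2(TPM + 1) (4.10, adjusted p = 0.0468). Over the other alternatives the adjusted p ran up to 0.308, without WT replicate 3. Within the replicate 2 pair alone it stood at 2.41 CPM in WT and 52.0 in cKO. Efnb1 lies on the X chromosome (99136061 to 99149022, GRCm38). Of 197 tested X-linked genes 75, or 38.1%, were higher in cKO without overlap, against 10.4% of all genes tested. Their median log2 fold change was 0.68, against 0.07 over all genes tested. The part of the X chromosome or of sex in the difference of Efnb1 cannot be told apart from that of genotype.

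Among the 42 genes, the Efnb1 mRNA had the most copies per length of GGACT, a common form of the short consensus at which m6A is written. A search of the sense strand of 1 transcript per gene in GENCODE M21 (GRCm38, the assembly of mm10) found 9 copies in 3258 bases, or 2.76 per kb. The median was 1.48 per kb over the 42 genes and 1.05 over 5893 tested genes with a paired transcript, whose highest value was 6.74. Epha6 (2.545), Ephb3 (2.39) and Slit1 (2.38) came next, and Epha10 (0.644), Dcc (0.68) and Robo2 (0.70) were lowest of the 42. Methylation was not measured, and a match is only a run of letters. Of the 9 copies 4 lie in coding sequence, 1 in exon 3 and 3 in exon 5 of 5. They are shown because m6A is the mark the deletion targets, as 25 bases of mRNA 5′ to 3′, plus strand of chromosome X, with GGACT in capitals.
Efnb1 exon 3, GGACT at chrX:99146501-99146505: gagcttggagGGACTggagaaccgg
Efnb1 exon 5, GGACT at chrX:99147170-99147174: gtggcagcggGGACTctgacagctt
Efnb1 exon 5, GGACT at chrX:99147406-99147410: atccccttacGGACTacagagaaca
Efnb1 exon 5, GGACT at chrX:99147452-99147456: aggtgagtggGGACTacgggcatcc

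The related ligands did not share the pattern of Efnb1. Efnb2, the ephrin-B of arteries and many neurons, had 4, 52 and 1 counts in WT against 289, 11 and 6 in cKO and lay below the filter. Its high values came from 1 library of each genotype, WT replicate 2 and cKO replicate 1, and the groups overlapped. Efnb3, an ephrin-B of the nervous system midline, had 12 counts in all WT libraries, against 9, 11 and 15 in cKO. Its log2 fold change was 0.25 (SE 0.39, edgeR adjusted p = 0.886), and −0.08 without cKO replicate 3.

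Ephrin-A ligands, held in the membrane by a lipid anchor, were scarce and none was tested. Efna3 had 3 counts in all WT libraries, against 4, 6 and 12 in cKO. Efna2 had 4, 3 and 2 in WT and 1 in each cKO library. Both sets of libraries were without overlap, in opposite directions, and Efna1, Efna4 and Efna5 had at most 4 counts in any library. A count of 0 allows up to 3 counts, or 2.41 to 4.24 CPM per library, so that absence cannot be read from these values.

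Among EphB receptors, which bind ephrin-B ligands, Ephb2 had 11, 8 and 8 counts in WT against 16, 86 and 206 in cKO. The cKO libraries were all above WT but spread over more than 10-fold among themselves on the CPM scale, from 21.5 to 291. The log2 fold change was 3.81 (SE 1.01, edgeR adjusted p = 0.207), 2.52 without cKO replicate 3, and DESeq2 gave 3.83 (adjusted p = 0.00775). The gene spans 136647536 to 136836326 on chromosome 4 (GRCm38). Ephb2 counts were split between a pair of transcripts of 4850 and 4857 bases. The form of 4857 bases took 28.3 and 35.8 of the counts in cKO replicates 2 and 3 and 0 in the other 4 libraries. Those 4 libraries held only 8 to 16 Ephb2 counts each, so that absence of this form cannot be read from them.

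Ephb6, an Eph receptor with an inactive kinase, had 17, 9 and 6 counts in WT against 17, 96 and 11 in cKO. The groups overlapped and the high value was cKO replicate 2 (log2 fold change 2.02, SE 0.83, edgeR adjusted p = 0.387), without which it stood at 0.80. Ephb1 had 24, 123 and 18 counts in WT against 11, 106 and 12 in cKO, high in replicate 2 of both genotypes. Its log2 fold change was −0.09 (SE 0.98, edgeR adjusted p = 0.989), and 0.95 without WT replicate 2. Ephb3 had 11, 10 and 10 counts in WT against 3, 3 and 2 in cKO, lower in each cKO library. Ephb4, the EphB receptor of vessels, had 0 to 5 counts in WT and 1 to 8 in cKO. Summed TPM of 10 endothelial markers was 67.7 to 240 in WT and 33.4 to 77.1 in cKO, and their part in the values of Ephb4, Efnb2 or Unc5b was not tested.

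The EphA receptor Epha4, which binds ephrins of both kinds, was the most abundant Eph receptor by group mean TPM. In cKO replicate 2 Ephb6 was slightly above it (33.65 and 32.21 TPM). Epha4 had 197, 210 and 121 counts in WT against 135, 160 and 589 in cKO. Only cKO replicate 3 stood out, and the log2 fold change was 1.14 with that library (SE 0.71, edgeR adjusted p = 0.585) and −0.04 without it. Gfap, an astrocyte gene, also differed in that library, with 729 counts against 40 and 47 in cKO replicates 1 and 2 and 827 to 1286 in WT. Aldoc, another astrocyte gene, did not, with 23, 29 and 23 counts in cKO and 632 to 928 in WT. The part of astrocyte RNA in the Epha4 value was not tested. In all, 7 of the 15 tested genes were highest in cKO replicate 3, against 19.2% of all genes tested. Of the 41 genes with any count 14 were highest there. That share is no background for them, since most of the 41 lay below the filter. In bulk tissue, fewer cells of a type and less RNA per cell cannot be told apart.

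Epha5, an EphA receptor of cortical and hippocampal neurons, had 33, 42 and 20 counts in WT against 40, 25 and 52 in cKO (log2 fold change 0.69, SE 0.52, edgeR adjusted p = 0.674), and the groups overlapped. Epha7 lay below the filter with 5, 10 and 6 counts in WT against 9, 11 and 7 in cKO. The groups overlapped in counts and were apart after scaling to CPM or as TPM (2.27 to 3.12 in WT, 4.03 to 4.13 in cKO). From 56.1% to 85.4% of its counts in each library were assigned to the short transcript of 3272 bases, which lacks the later exons; truncated forms without the kinase are known for this receptor. Epha3, a receptor of ephrin-A ligands, had 8, 1 and 1 counts in WT against 7, 8 and 8 in cKO. Epha2, Epha6, Epha8 and Epha10 had at most 7 counts in any library.

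The tested Slit and Robo genes all had higher values in cKO, though none was called. Robo1 had 24, 16 and 8 counts in WT against 44, 41 and 75 in cKO. It stood at 16.4 ± 9.33 CPM in WT and 68.8 ± 33.6 in cKO (SD, n = 3). The fitted difference was 2.06 on the log2 scale (SE 0.61, edgeR adjusted p = 0.241, and 0.0615 with DESeq2). Robo2 had 33, 21 and 28 counts in WT against 50, 48 and 39 in cKO. Both genes lie on chromosome 16 (GRCm38), Robo1 at 72027518 to 73047491 and Robo2 at 73891976 to 75447443. All cKO libraries of both receptors lay above all WT libraries. The fold change of Robo2 was 0.98 on the log2 scale (SE 0.46, edgeR adjusted p = 0.456), from 28.8 ± 10.6 to 56.8 ± 9.70 CPM.

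The ligand Slit1 had 41, 32 and 23 counts in WT against 60, 49 and 49 in cKO, again with no overlap (log2 fold change 1.01, SE 0.47, edgeR adjusted p = 0.445). Slit1 lies at 41597824 to 41747275 on chromosome 19. Leaving out any 1 library kept the log2 fold changes at 1.62 to 2.61 for Robo1, 0.70 to 1.19 for Robo2 and 0.81 to 1.33 for Slit1. Slit2, the repellent of midline glia, had 12, 10 and 6 counts in WT against 2, 5 and 7 in cKO, and Slit3 had 1, 0 and 0 and then 1, 1 and 9. Robo3, the divergent Robo of commissural axons, had 1, 1 and 0 counts in WT against 0 in cKO.

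The srGAPs, which bind Robo and act on small GTPases, were all tested. Srgap2 had 414, 379 and 280 counts in WT against 426, 419 and 390 in cKO, or 365 ± 87.2 and 515 ± 83.1 CPM (SD, n = 3). The groups overlapped, and the fitted log2 difference was 0.49 (SE 0.32, edgeR adjusted p = 0.610). Srgap1 had 14, 14 and 17 counts in WT against 17, 12 and 21 in cKO, and its log2 fold change was 0.46 (SE 0.45, edgeR adjusted p = 0.770). Srgap3 had 24, 483 and 13 counts in WT against 57, 480 and 71 in cKO.

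The value of Srgap3 thus followed the replicate number more than the genotype. Its log2 fold change was 0.61 (SE 1.32, edgeR adjusted p = 0.926), −0.70 without cKO replicate 2 and 3.37 without WT replicate 2. Without both replicate 2 libraries, 76.6 and 100 CPM in cKO stood against 27.0 and 15.1 in WT. Of the 15 tested genes, Srgap3 and Ephb1 had both replicate 2 libraries above all 4 others, as had 16% of all genes tested. Below the filter Unc5b had the same form, with 40 and 18 counts in replicate 2 and 0 to 2 elsewhere.

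The netrin receptors were led by Neo1, neogenin, which also binds repulsive guidance molecules. It had 75, 497 and 70 counts in WT against 413, 666 and 95 in cKO. On the CPM scale WT replicate 2 (399) lay between cKO replicate 3 (134) and cKO replicate 1 (555), so that the groups overlapped (log2 fold change 1.26, SE 0.85, edgeR adjusted p = 0.624). The log2 fold change was 2.45 without WT replicate 2 and 0.88 without cKO replicate 2.

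Counts of Neo1 were divided between a longer transcript and a shorter form of 7305 bases. The shorter took 32.0%, 53.1% and 59.7% of its counts in WT replicates 1 to 3 and 26.0%, 16.2% and 10.04% in cKO replicates 1 to 3. Its mean share was 48.2% ± 14.5 in WT and 17.4% ± 8.07 in cKO (SD, n = 3), and the groups did not overlap. This comparison was picked after the values were seen and is a description with no test. The forms differ in the coding sequence by the 81 bases below, so that the split rests on the few fragments that reach them and on the RSEM model. Both stretches are kept in the longer transcript and absent from the shorter, and neither shifts the reading frame. They are shown 5′ to 3′ from GENCODE M21 on the minus strand of GRCm38.
Neo1 exon 17, first 48 bases, chr9:58907047-58907094: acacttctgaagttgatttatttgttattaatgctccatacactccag
Neo1 exon 21, whole, 33 bases, chr9:58902083-58902115: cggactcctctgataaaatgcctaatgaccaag

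**Figure D4:**
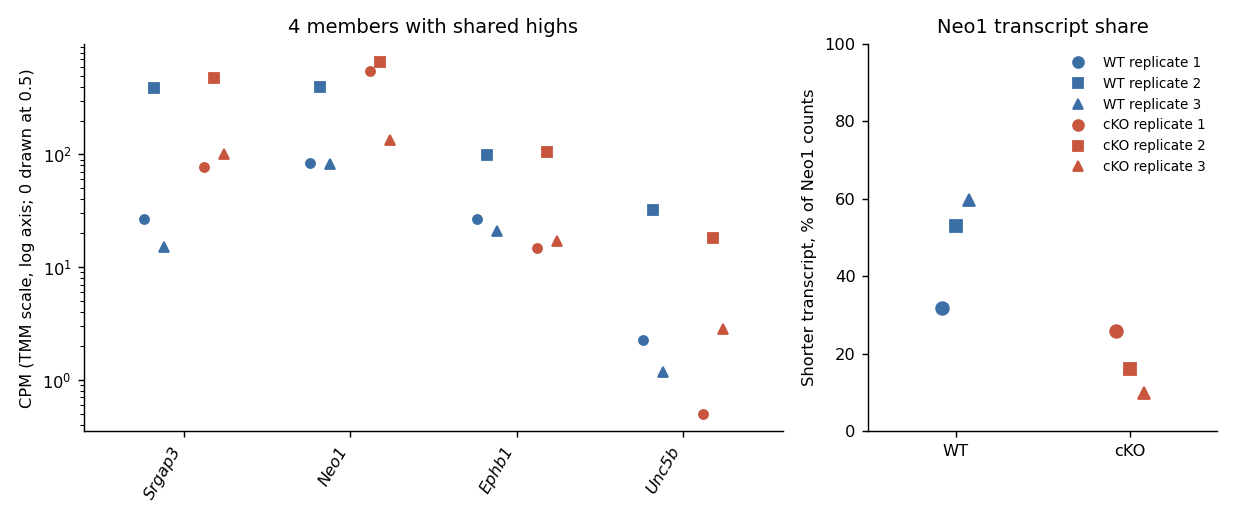
Left, CPM (log axis) of Srgap3, Neo1, Ephb1 and Unc5b by library, with blue for WT and red for cKO. All 4 genes are highest in the replicate 2 library (square) of each genotype, but Neo1 in WT replicate 2 stays below cKO replicate 1. Right, the shorter Neo1 transcript as a percent of Neo1 counts by library, 32.0% to 59.7% in WT and 10.04% to 26.0% in cKO.

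Dcc, the receptor of attraction to netrin-1, lay below the filter with 1, 5 and 6 counts in WT against 29, 5 and 68 in cKO. High values came from cKO replicates 1 and 3, while cKO replicate 2 was within the range of WT. Unc5d, a receptor of upper-layer cortical neurons, had 3, 2 and 2 counts in WT against 17, 2 and 6 in cKO. Unc5a had 2 to 8 counts in WT and 4 to 9 in cKO, and Unc5c had at most 3 in any library.

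Draxin, a secreted repellent that binds Dcc, was the 1 tested gene of the set with a sizeable negative value. It had 11, 243 and 117 counts in WT against 7, 1 and 10 in cKO. WT replicates 2 and 3 were far above cKO, but WT replicate 1 was close to cKO replicate 3 (12.4 and 14.1 CPM), and so the groups overlapped. The log2 fold change was −3.81 (SE 1.24, edgeR adjusted p = 0.267), −3.20 to −4.44 when 1 library was left out. Draxin has 7 exons and spans 148098437 to 148131139 on chromosome 4 (GRCm38). Of the other cues, Ntn1 had 4, 5 and 2 counts in WT against 1, 1 and 2 in cKO. The basement membrane netrin Ntn4 had 4, 7 and 6 in WT and 3, 1 and 3 in cKO, lower without overlap. Flrt2 and Flrt3, which bind Unc5 receptors, had at most 2 counts in any library and have 2 and 3 exons. Over genes with 1 to 3 exons and a mean of at least 20 CPM, 6.32% to 44.5% were at 0 or 1 count in a library, against 0.733% to 3.89% of genes with more exons. The low values of the Flrts can therefore not be set against those of the many-exon receptors.

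Over the 27 untested genes, counts summed over all libraries ran from 0 to 363 with a median of 15, and 10 genes had fewer than 10 in all. A looser filter of 1 CPM in 3 libraries let 34 of the 42 genes into a fit of 10524 genes, 19 of them below the main filter. Of these 19, Epha7 and Efna3 were higher and Ephb3, Efna2 and Ntn4 lower in cKO without overlap, against 8.84% higher and 10% lower over all genes in that fit. None of the 34 was called (0.114% of all genes higher, 0.095% lower). In that fit the log2 fold change was −1.66 for Ephb3 (SE 0.48, edgeR adjusted p = 0.338), 1.56 for Efna3 (SE 0.62, adjusted p = 0.397) and 3.48 for Dcc (SE 1.14, adjusted p = 0.357). These 3, with Efnb1, Ephb2, Robo1 and Draxin, were at an unadjusted p below 0.05, that is 5 higher and 2 lower of 34, against 6.18% and 5.84% over all genes.

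**Figure D5:**
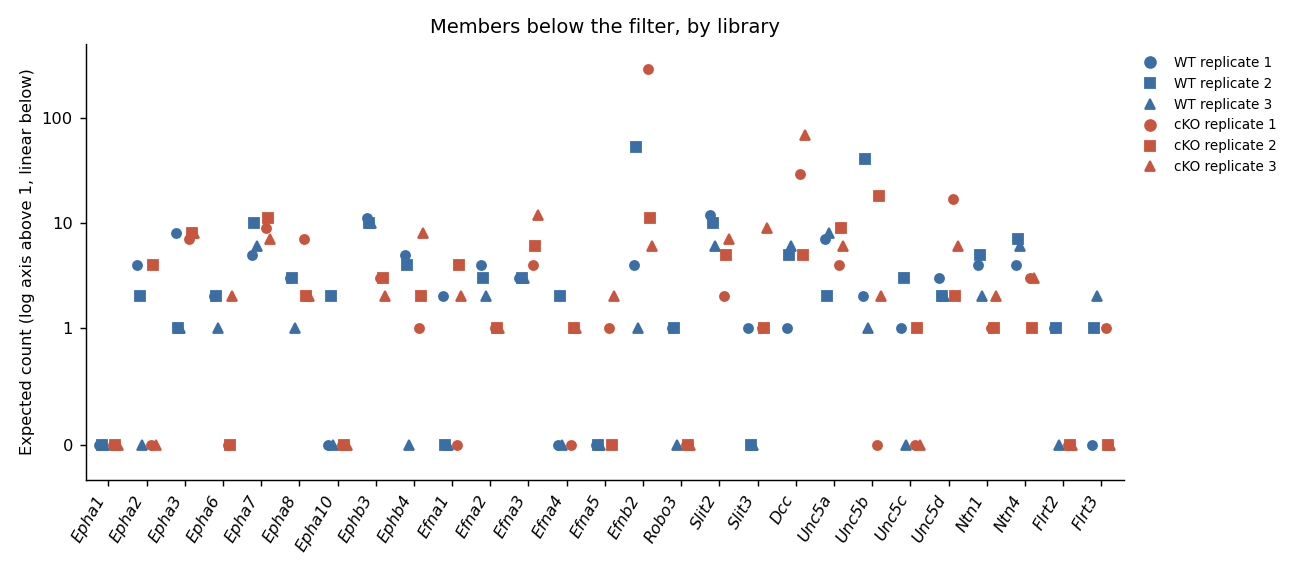
Expected counts (log axis above 1, linear below) of the 27 genes below the filter, 1 point per library, with blue for WT and red for cKO. Ephb3 shows 10 or 11 counts in WT and 2 or 3 in cKO, Efnb2 is high in WT replicate 2 and cKO replicate 1, and Dcc in cKO replicates 1 and 3.

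Genes that act with these ligands and receptors were read from the same fit as 4 lists with 113 genes in all, of which 112 were in the files and 84 were tested. With edgeR 0 were called. At an unadjusted p below 0.05, 14 were higher and 2 lower, against 7.16% and 5.41% of all genes tested, and 17 were higher and 7 lower without overlap, against 10.4% and 9.45%. Their median log2 fold change was 0.13, beside 0.07 over all genes tested. The same shares are the background of each list below. These lists passed the same filter on low counts and are no neutral sample either. Pdzrn3 and Sos1, named below, met it in all cKO but not all WT libraries. They thus entered through the group in which they were high, and how many others did so was not counted. Of 27 tested genes of Eph and ephrin signalling 3 were higher and 1 lower at an unadjusted p below 0.05. Kidins220, a membrane scaffold that ephrin receptors act on, stood at 59.0 ± 21.2 CPM in WT and 436 ± 236 in cKO (SD, n = 3; log2 fold change 2.89, SE 0.61, edgeR adjusted p = 0.141). Pdzrn3 stood at 11.6 ± 2.19 and 35.7 ± 27.2 CPM. Fyn, a kinase of the Src family downstream of Eph receptors and Dcc, stood at 1079 ± 97.2 and 712 ± 24.5 CPM, with a log2 fold change of −0.60 (SE 0.21, adjusted p = 0.313). The genotypes did not overlap for any of these 3.

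Of 23 tested genes of Slit and Robo signalling 5 were higher and 0 lower at an unadjusted p below 0.05. Cdh2, the cadherin that Robo acts on, stood at 103 ± 25.7 CPM in WT and 690 ± 428 in cKO (SD, n = 3; log2 fold change 2.75, SE 0.64, edgeR adjusted p = 0.169). Nell2, a secreted ligand of Robo3, stood at 157 ± 26.4 and 513 ± 297 CPM, and Sos1, an exchange factor recruited to Robo, at 8.35 ± 2.39 and 18.2 ± 5.39. Of 19 tested genes of netrin and Flrt signalling 5 were higher and 1 lower, with a median log2 fold change of 0.87. They included Tubb3, a tubulin that binds netrin receptors (2029 ± 187 and 3697 ± 753 CPM), Adgrl2, a latrophilin of the family that binds Flrts (62.7 ± 66.6 and 416 ± 10.1), and Dapk1, a kinase that binds Unc5b (22.0 ± 0.587 and 61.1 ± 25.6). Tubb3 also marks neurons. The excitatory and pan-neuronal marker lists had a higher summed TPM in cKO with members in both directions, and the interneuron list had a lower one. The part of those lists in these values was not tested.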

How the data were processed

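Per the file headers, the authors deposited 1 RSEM table per library with 35034 transcripts. STAR 2.7.10b, RSEM 1.3.3 and mm10 come from the list of tools and builds in use, per the submitters' processing notes. The annotation and the strandedness of counting are not stated in them. The deposited expected counts are estimated fragments per transcript, and the deposited TPM values correct for transcript length and library size, per the file headers. The deposited effective lengths gave the mean fragment length.

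Expected counts were summed per gene, rounded, scaled by TMM and filtered with filterByExpr (minimum count 10). WT and cKO, from the sample titles, were compared over all 6 libraries with no covariate by the quasi-likelihood test of edgeR 4.0.16 in R 4.3.3, and p-values were adjusted by Benjamini-Hochberg over the 5918 genes tested. CPM are on the TMM scale. The SE was worked back from the F statistic and restates the p-value. The fit was tested on simulated counts with less spread between libraries than these data. The share of true changes that it finds in these data was therefore not tested. Alternatives used other scalings and filters, DESeq2 1.42.0, limma 3.58.1, a replicate block, a replicate 2 term and fewer libraries. The replicate 2 term sets both replicate 2 libraries apart from the others and holds no depth value. Positions come from RefSeq (GRCm38.p6), which listed all 42 genes, and exon numbers from GENCODE M21. The genes and lists were chosen with earlier results of these data known. Values in every library are given for genes without overlap between groups, at an unadjusted p below 0.05, or highest by TPM in their class, and for others where counts allow; up to 3 partners per list with the smallest p are named. Ephb3, Efnb2, Dcc, Unc5b and other genes below the filter were named in full after their values were seen. One of the partner lists counts in the total over the lists and is not reported here.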

Additional observations from a re-analysis of the deposited data

How the results depend on the processing

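Over 18 alternatives the log2 fold changes of 11 of the 15 tested genes kept their sign, and 259 of 270 such values kept both sign and side of the threshold. Reversals came from leaving out 1 library: Epha4 ran from −0.04 to 1.51, Ephb1 from −1.62 to 0.95, Efnb3 from −0.08 to 0.43 and Srgap3 from −0.70 to 3.37. Genes of the set called higher numbered 0 with edgeR and 2 with DESeq2. The number was 1, Efnb1 each time, with upper-quartile scaling, with the replicate 2 term and with limma on log2(TPM + 1). When any 1 library was left out 0 were called, and 0 were called lower in any fit. At an unadjusted p below 0.05, 3 to 5 were higher and 0 to 2 lower without 1 library; the lower count was 1 with edgeR, 0 with limma-voom, and 2 without a filter, with 1 CPM in 3 libraries and with DESeq2, and 0 without both replicate 2 libraries. Over all genes 29 were called higher and 25 lower with edgeR, and 191 and 109 with DESeq2. The numbers were 12 and 10 with no filter or with 1 CPM in 3 libraries, and 11 and 8 with the replicate 2 term. With only genes of more than 3 exons 14 were higher, and with limma on log2(TPM + 1) 43. Without both replicate 2 libraries they were 0 and 0 (with 740 at an unadjusted p below 0.05 and only edgeR used). Without 1 library they ran from 0 to 28 and from 0 to 14. With upper-quartile scaling the median log2 fold change over all genes was −0.22 in place of 0.069, which turned no gene of the set. With the replicate number as a block, 1 gene was called higher and 0 lower over all genes (with 763 at an unadjusted p below 0.05), and 0 of the set were lower at an unadjusted p below 0.05. Same-numbered libraries deviated together with r of 0.064, 0.462 and 0.162, and WT replicate 1 went best with cKO replicate 3 (0.20), so the numbers are not taken as pairs. The cause of these shifts was not tested, beyond the smaller number of genes or libraries in some fits. Many of the 27 untested genes have so few counts that counting error limits them.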
